A study of Mus musculus with 123 samples.

Results

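The diet effect was examined at 1 point of the hepatic clock cycle, that of ZT20 in Equal light, in mouse liver, between animals on a diet high in fat (HFD) and animals on one low in fat (LFD). The comparison used the 21 libraries titled Equal light ZT20, Long light ZT0 or Short light ZT16, 17.1% of all libraries of the series. These times were chosen by the levels of clock genes in these data: on the labelled scale of zeitgeber time (ZT, hours of the light schedule), the clock of Long light mice ran about 4 h later and that of Short light mice about 4 h earlier than in Equal light. HFD was represented by 4 Equal light, 4 Long light and 3 Short light libraries, and LFD by 3, 3 and 4. The 6 groups therefore share tissue and, as inferred from the clock genes, an approximate clock time. They differ in diet and in photoperiod, and the labelled ZT changes together with photoperiod. The labels name no strain, sex, age or duration of feeding, nor the hours of light in each photoperiod. They name no animals either, so the p-values measure the spread between samples that are separate by label only.

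Mice eat mostly at night, and the liver then handles a flow of dietary fuel that depends on the diet. A carbohydrate-rich meal drives fatty acid synthesis through the factors SREBP1 and ChREBP. Genes of cholesterol synthesis are under the factor SREBP2. Dietary fat brings fatty acids that are ligands of the nuclear receptor PPARα, whose targets run fatty acid oxidation, ketone body production and omega-hydroxylation. Fat that is not burnt is esterified and stored in droplets coated with perilipins. The clock, built around the activator Arntl and its repressors, sets the hour at which many of these genes peak.

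Clock genes chose the 3 times, and their values are given as a description only. At the matched times, the group means of 20 clock and clock output genes in the 3 photoperiods lay apart by a median of 0.37 log2 units (range 0.15 to 1.19). At the label ZT20 in all photoperiods the median spread was 1.64 (range 0.12 to 3.97). Arntl, the core activator, averaged 5.40, 5.25 and 5.12 log2 CPM (a read count scaled to library size) in Equal, Long and Short light, and Per2, a repressor, averaged 5.16, 5.19 and 5.47. Dbp, a clock output factor whose cycle runs opposite to that of Arntl, averaged 0.30, 0.91 and 1.26 log2 CPM. Of the HFD minus LFD differences of the 20 genes, the lowest was that of Per3 (-0.79, SE 0.299) and the highest that of the repressor Nr1d1 (1.29, SE 0.520), with a median of -0.11. One library went against this picture. In LFD Short light ZT16 replicate 4, Arntl minus Dbp was -0.39 on the log2 scale, against 3.58 to 6.04 in the other 20 libraries.

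**Figure D1:**
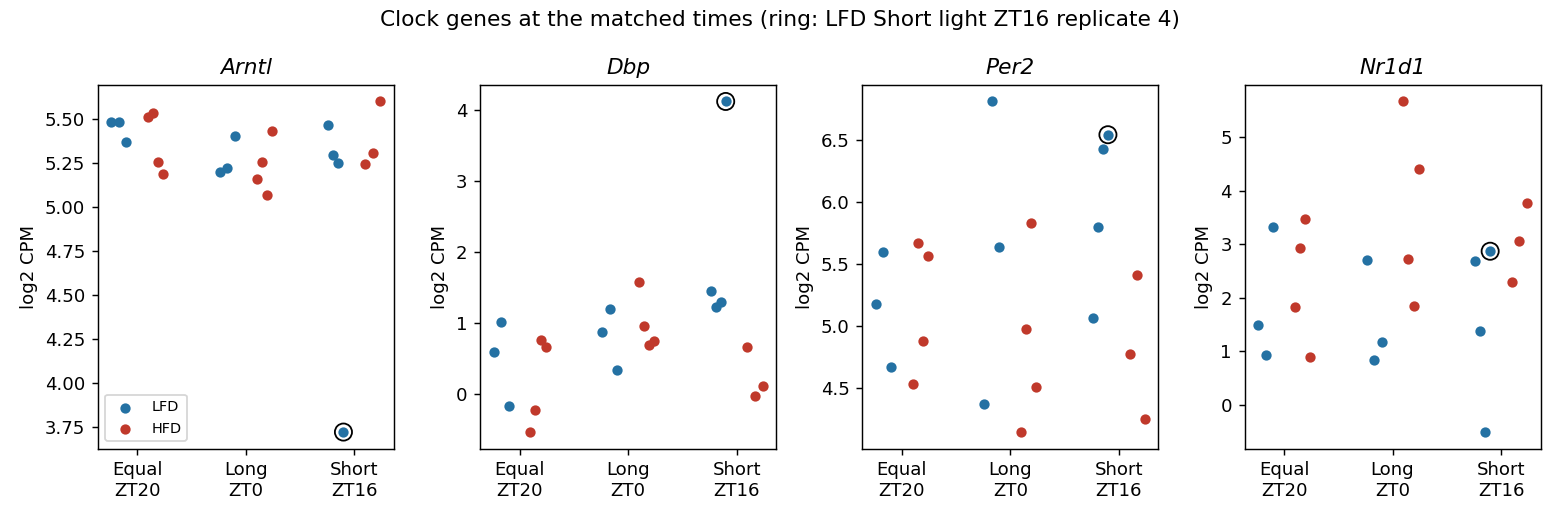
Level of 4 clock genes (y axis, log2 CPM) in each of the 21 libraries, by photoperiod (x axis) and diet (red HFD, blue LFD). Points are single libraries. The ringed library, LFD Short light ZT16 replicate 4, lies below all others for Arntl and above all others for Dbp.

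The libraries held 18.78 M to 32.04 M reads (M, mega; 24.15 ± 3.77 M in HFD, SD, n = 11, and 23.88 ± 2.84 M in LFD, SD, n = 10), so that 1 read was worth 0.0423 CPM. HFD Equal light ZT20 replicate 1 stood apart from its group, with a root mean square deviation over genes of 0.63 log2 units, against 0.23 to 0.43 in the other 20 libraries. In it the ribosomal protein gene Rplp1 was at 5.17 log2 CPM, against 7.16 to 7.66 in the other HFD libraries, and the desaturase gene Scd1 at 15.21, against 12.76 to 14.74 (genes picked after their values were seen). A mean level above 4 log2 CPM of skeletal muscle markers was found in LFD Long light replicate 2 (6.04), HFD Long light replicate 2 (5.88) and LFD Equal light replicate 3 (4.93), and of pancreas acinar markers in LFD Short light replicate 1 (6.43). None of 12 hepatocyte markers passed the test between diets, where 3.27% of all genes did, so a count of 0 is near that share. Their differences ran from -0.30 to 0.22. Fewer cells of a type and less RNA per cell cannot be told apart in whole liver.

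The comparison of diets within photoperiod asked which transcripts differed at this clock time. Genes of fat burning rose in HFD, led by the omega-hydroxylases Cyp4a14 (9.98-fold) and Cyp4a10 (4.47-fold), and among genes of at least 2 log2 CPM the fatty acid binding protein gene Fabp5 fell most (8.37-fold lower). Of 13348 genes tested with limma, 436 passed an adjusted p of 0.05 (3.27%), 264 of them higher in HFD (1.98%) and 172 lower (1.29%). Among them, 188 differed by more than 1.5-fold and 77 by more than 2-fold, 45 up and 32 down. The difference had the same sign in all 3 photoperiods for 435 of the 436, a share raised by their selection, against 36.7% of all genes tested. In 20 genes (0.15%) the HFD and LFD libraries did not overlap, and in 18 of these every HFD library was the higher. The number of calls rested on single libraries: it was 1059 without HFD Equal light ZT20 replicate 1, 220 without HFD Short light ZT16 replicate 1 and 286 without LFD Equal light ZT20 replicate 1. Without LFD Short light ZT16 replicate 4 it was 434. It was 205 without the 4 marker-rich libraries just named, of which 3 were LFD and 1 HFD.

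**Figure D2:**
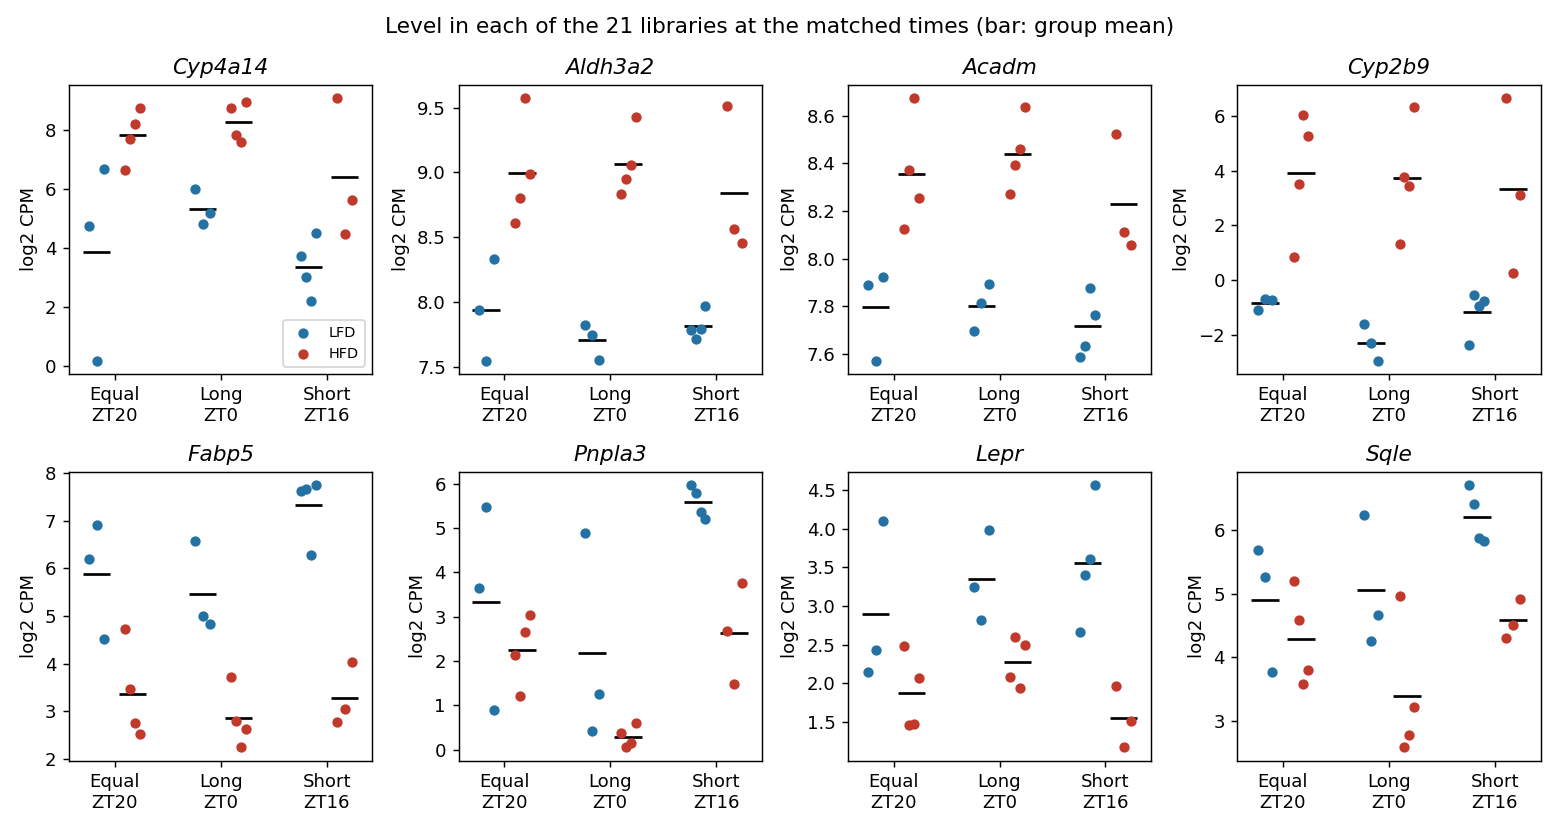
Level of 8 genes (y axis, log2 CPM) in each library, by photoperiod (x axis) and diet (red HFD, blue LFD), with bars at the group means. HFD and LFD do not overlap for Aldh3a2, Acadm and Cyp2b9. For Fabp5 the highest HFD library (4.72) lies just above the lowest LFD library (4.51).

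Omega-hydroxylation prepares fatty acids for peroxisomal breakdown, and its genes gave the largest increases among genes of at least 2 log2 CPM. Cyp4a14 ranged from 4.48 (median 7.85) to 9.10 log2 CPM in HFD and from 0.17 (median 4.62) to 6.70 in LFD. In 8 of 11 HFD libraries it was above every LFD library, and the log2 difference was 3.32 (SE 0.629, adjusted p 0.00558). Cyp4a10 ranged from 7.14 (median 8.53) to 9.51 in HFD and from 2.87 (median 6.28) to 7.86 in LFD, with 9 of 11 HFD libraries above every LFD library (2.16, SE 0.439, adjusted p 0.00899). The lowest LFD value of both genes came from 1 library, LFD Equal light replicate 2, and the highest from LFD Equal light replicate 3. The genes lie close to each other on chromosome 4 of GRCm38 (Cyp4a14 at 115486200 to 115496142, minus strand, and Cyp4a10 at 115518264 to 115533649, plus strand). They belong to a family of close copies, so reads may be split between them. Cyp4a12a, a relative, stood at a difference of -0.09 (95% interval -0.41 to 0.24).

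Aldh3a2, the fatty aldehyde dehydrogenase that follows in the same route, separated the diets fully. It ranged from 8.46 (median 8.95) to 9.57 log2 CPM in HFD and from 7.55 (median 7.79) to 8.33 in LFD. The gap between the lowest HFD and the highest LFD library was small beside the difference of the medians, and the log2 difference was 1.15 (SE 0.137, adjusted p 0.000108). Vnn1, a pantetheinase that recycles the vitamin part of coenzyme A, ranged from 4.88 (median 5.83) to 6.56 in HFD and from 2.98 (median 4.13) to 5.07 in LFD. Only 1 HFD library fell within the LFD range of Vnn1 (1.66, SE 0.233, adjusted p 0.000418). Fgf21, a fasting hormone of the liver, ranged from 2.63 (median 3.59) to 4.51 in HFD and from 0.82 (median 2.26) to 3.33 in LFD. The diets overlapped for Fgf21, with 6 of 11 HFD libraries above all LFD libraries (1.24, SE 0.263, adjusted p 0.0124). Gdf15, a stress cytokine, stood 3.83-fold higher (1.94, SE 0.468, adjusted p 0.0244), but lost the call in several alternatives. Its adjusted p was 0.0555 without the 4 marker-rich libraries, 0.0789 with library number as a covariate, and 0.0584, 0.0522 and 0.0535 without LFD Equal light replicate 1, LFD Equal light replicate 2 or LFD Long light replicate 2.

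Of 17 PPARα targets outside the oxidation pathway that were tested, 8 rose and 0 fell, against 1.98% and 1.29% of all genes. Their median log2 difference was 0.67, against -0.01 over all genes. Beside Cyp4a14, Cyp4a10, Aldh3a2, Vnn1 and Fgf21, 3 more passed: Hsdl2, a peroxisomal dehydrogenase (0.47), Pex11a, which divides peroxisomes (0.67), and Cyp8b1 of bile acid synthesis (0.53). Cyp8b1 had an adjusted p of 0.0584 without HFD Short light replicate 1 and 0.0674 with library number as a covariate. The kinase gene Pdk4, which blocks pyruvate oxidation, had a difference of 0.39 (95% interval -0.16 to 0.94) and Angptl4, a lipase inhibitor, one of 0.96 (0.31 to 1.6). Neither passed, with adjusted p-values of 0.574 and 0.103.

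In the chain of fatty acid oxidation and ketone body production, 21 of 30 genes rose and 0 fell, and all 30 differences were above 0, with a median of 0.39. The mean level of the list ran from 7.26 to 7.97 log2 CPM over HFD libraries and from 6.98 to 7.45 over LFD libraries. Steps from entry to ketone bodies were represented. Slc22a5 imports carnitine into the cell (0.65, adjusted p 0.00739), Slc25a20 carries acyl-carnitines into mitochondria (0.43, adjusted p 0.00208) and Cpt2 releases them there (0.38, adjusted p 0.00778). Cpt1a, the gate of the shuttle, had a difference of 0.41 that did not pass (95% interval 0.12 to 0.69, adjusted p 0.122).

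Acadm, the medium-chain acyl-CoA dehydrogenase, had HFD values from 8.06 (median 8.37) to 8.67 log2 CPM and LFD values from 7.57 (median 7.79) to 7.92. Etfdh, which passes electrons from these dehydrogenases to the respiratory chain, had HFD values from 8.31 (median 8.44) to 8.73 and LFD values from 7.80 (median 8.07) to 8.20. Slc25a20 had HFD values from 6.83 (median 7.11) to 7.31 and LFD values from 6.28 (median 6.61) to 6.79. In these 3 genes no HFD library reached down into the LFD range, although the fold differences were only 1.49 (adjusted p 0.000279), 1.31 (adjusted p 0.000697) and 1.35.

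The long-chain steps had differences of smaller size. Acadl had a difference of 0.29, Hadha 0.23 and Hadhb 0.34, all called higher, and Acadvl had a difference of 0.16 that was not called. In peroxisomes, Ehhadh rose by 0.57 and the thiolase Acaa1b by 0.79, while Acaa1a stood at 0.29 and was not called (95% interval -0.02 to 0.60). Bdh1, of ketone body metabolism, rose by 0.36. The thioesterases Acot1 and Acot2, which are near-identical copies, rose by 1.11 and 1.16. Genes of the respiratory chain itself had 0 of 28 called, where 3.27% of all genes were, and differences from -0.15 to 0.10. Their median was -0.02 in Equal, 0.10 in Long and -0.11 in Short light, with 12, 25 and 2 of the 28 above 0. Without the 4 marker-rich libraries, 10 of the 30 oxidation genes passed, and with both the library of deviating clock and the HFD library that stood apart left out, 27 did.

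**Figure D3:**
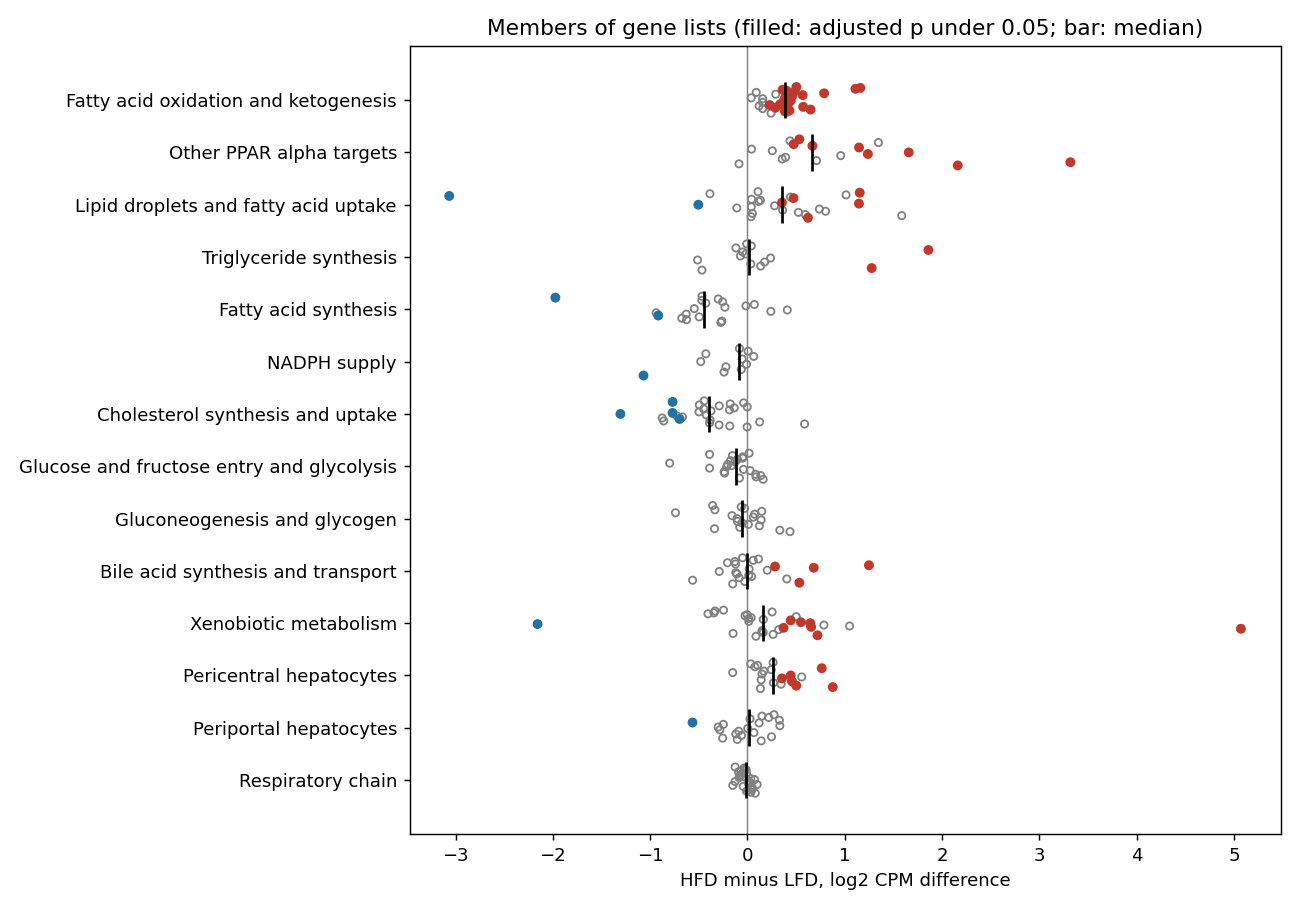
HFD minus LFD difference (x axis, log2 CPM) of each tested member of 14 gene lists (rows). Filled points passed an adjusted p of 0.05 (red higher, blue lower in HFD), open points did not, and bars mark list medians. Oxidation genes lie to the right of 0 and most synthesis genes to the left, while respiratory chain genes stay between -0.15 and 0.10.

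Promoters are shown for 3 of the genes that rose, one each for oxidation (Acadm), fatty acid uptake (Cd36) and droplet coating (Plin2), because each holds the half-site AGGTCA that nuclear receptors of the PPAR type read. Of the 34 genes of the oxidation, PPARα and droplet lists that rose, 26 were found in the RefSeq promoter table (build GRCm38.p6, 250 bases before to 50 after the start), with 29 promoters. The letters AGGTCA, on either strand, occurred in 6 of these promoters, of 5 genes, against 16.26% of all 32851 promoters. The DR1 element, a direct repeat of it with 1 base between, occurred in 0 of the 29, against 0.04% of all promoters. A match is a description and not a bound site. The 250 bases before the start are given 5′ to 3′ on the gene's strand, minus in all 3, with the match in capitals as TGACCT, the half-site on the opposite strand.
Plin2, chr4:86670060-86670309: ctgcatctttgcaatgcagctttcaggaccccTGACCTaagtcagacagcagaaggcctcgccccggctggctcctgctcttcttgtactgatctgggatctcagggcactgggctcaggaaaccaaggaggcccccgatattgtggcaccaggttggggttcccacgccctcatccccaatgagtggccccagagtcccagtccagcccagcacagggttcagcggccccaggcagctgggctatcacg
Cd36, chr5:17835897-17836146: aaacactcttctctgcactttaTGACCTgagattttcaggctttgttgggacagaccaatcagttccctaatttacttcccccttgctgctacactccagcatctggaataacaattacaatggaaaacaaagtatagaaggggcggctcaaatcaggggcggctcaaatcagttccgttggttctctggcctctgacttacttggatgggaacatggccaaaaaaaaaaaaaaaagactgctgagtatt
Acadm, chr3:153944644-153944893: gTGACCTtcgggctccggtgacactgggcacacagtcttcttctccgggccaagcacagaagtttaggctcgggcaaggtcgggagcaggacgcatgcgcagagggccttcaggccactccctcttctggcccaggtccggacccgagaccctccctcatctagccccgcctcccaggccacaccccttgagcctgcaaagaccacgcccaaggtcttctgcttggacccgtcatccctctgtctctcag
The match began 218 bases before the start in Plin2, 228 in Cd36 and 249 in Acadm.

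Storage and uptake of fat were mixed by role. Of 25 genes of lipid droplets and fatty acid uptake, 5 rose and 2 fell, against 1.98% and 1.29% of all genes. Their median difference was 0.35. Cd36, a fatty acid receptor, ranged from 5.37 (median 6.32) to 7.60 log2 CPM in HFD and from 4.67 (median 5.27) to 5.65 in LFD. The ranges met at their ends, with 8 of 11 HFD libraries above all LFD libraries (1.15, SE 0.253, adjusted p 0.0143). Plin2, the main droplet coat of hepatocytes, ranged from 8.81 (median 9.12) to 9.91 in HFD and from 8.36 (median 8.66) to 8.88 in LFD (0.62, adjusted p 0.00643). Pparg, the receptor that promotes fat storage, ranged from 2.15 (median 2.70) to 4.48 in HFD and from 1.07 (median 2.01) to 2.31 in LFD (1.15, SE 0.254, adjusted p 0.0143). Cd36 and Pparg had adjusted p-values of 0.0713 and 0.0735 without the 4 marker-rich libraries, and 2 of the 25 list members were then called higher. Without both libraries that stood apart, 12 were.

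Fabp5 went the other way. It ranged from 2.23 (median 2.80) to 4.72 log2 CPM in HFD and from 4.51 (median 6.43) to 7.76 in LFD. A single HFD library, Equal light replicate 1, reached into the LFD range, and 9 of 10 LFD libraries lay above all HFD libraries (-3.07, SE 0.362, adjusted p 0.000108). Fabp5 lies on chromosome 3, 10012548 to 10016607, plus strand. Abhd5, the activator of droplet lipase, fell as well (-0.51, adjusted p 0.00824). Fabp1, the abundant liver form, differed by 0.04 (95% interval -0.20 to 0.29).

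Of 14 triglyceride synthesis genes, 2 rose and 0 fell, against 1.98% and 1.29% of all genes. Both genes that rose encode acyltransferases of glyceride synthesis: Mogat1 (1.86, SE 0.362, adjusted p 0.00674) and Gpat3 (1.28, SE 0.266, adjusted p 0.0112). Mogat1 was a low transcript, from -1.46 (median -0.04) to 1.84 log2 CPM in HFD and from -2.67 (median -1.84) to -0.85 in LFD, where the prior in the deposited values understates a change. Mogat1 reached 1 CPM in HFD libraries only and was kept in the test through them. The final acyltransferases Dgat1 and Dgat2 differed by -0.02 (95% interval -0.14 to 0.10) and -0.05 (-0.28 to 0.18). Mogat1 and Gpat3 missed the threshold without the 4 marker-rich libraries (adjusted p 0.0612 and 0.0667).

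Of 20 genes of fatty acid synthesis, 0 rose and 2 fell, against 1.98% and 1.29% of all genes. Their median difference was -0.45. Pnpla3, a droplet lipase under SREBP1 and ChREBP control, ranged from 0.05 (median 1.49) to 3.76 log2 CPM in HFD and from 0.43 (median 5.04) to 5.98 in LFD. The diets overlapped widely, with 6 of 10 LFD libraries above all HFD libraries (-1.97, SE 0.528, adjusted p 0.0421), and the call was lost in 16 of the 21 fits that left out 1 library. Acacb, whose product malonyl-CoA restrains mitochondrial fatty acid entry, had a difference of -0.92 (SE 0.227, adjusted p 0.0277), and lost the call in 3 of the 21 fits (adjusted p 0.0525 to 0.0613). The core enzymes had negative differences with wide intervals that did not pass: Fasn -0.63 (95% interval -1.24 to -0.03), Acly -0.63 (-1.19 to -0.06), Acaca -0.50 (-0.94 to -0.05), Elovl6 -0.94 (-1.66 to -0.21) and Scd1 -0.55 (-1.27 to 0.18). The regulators Srebf1 and Mlxipl stood at -0.27 (-0.76 to 0.21) and -0.26 (-0.50 to -0.03). Of 11 genes that supply NADPH, 0 rose and 1 fell, against the same shares of all genes. The gene that fell was G6pdx, the first enzyme of the pentose phosphate pathway. It ranged from 2.41 (median 2.89) to 4.01 in HFD and from 2.78 (median 4.13) to 5.71 in LFD (-1.07, SE 0.262, adjusted p 0.0262), and it too lost the call in 3 of those fits (adjusted p 0.0531 to 0.0698).

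Cholesterol synthesis and uptake had 0 of 27 genes higher and 4 lower, against 1.98% and 1.29% of all genes. The median difference was -0.39, and 25 of the 27 were below 0. Sqle, the squalene epoxidase, ranged from 2.58 (median 4.30) to 5.20 log2 CPM in HFD and from 3.76 (median 5.75) to 6.71 in LFD. It was 2.47-fold lower, with 7 of 10 LFD libraries above all HFD libraries (-1.31, SE 0.328, adjusted p 0.0302). Lss, the cyclase of the next step, fell by 0.77 (adjusted p 0.0131) and Pmvk of the mevalonate pathway by 0.70 (adjusted p 0.0446). Insig2, a brake on the pathway, had a difference of 0.59 that did not pass (95% interval 0.25 to 0.92, adjusted p 0.0503). Sqle lost the call in 9 and Pmvk in 15 of the 21 fits that left out 1 library (adjusted p up to 0.0744 and 0.101). Without HFD Equal light replicate 1, 8 of the 27 were called lower, and without the 4 marker-rich libraries 3 were.

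Carbohydrate genes had no calls. Of 22 genes of glucose and fructose entry and glycolysis and 19 of gluconeogenesis and glycogen, 0 were called in either direction (3.27% of all genes were). Pck1 of gluconeogenesis differed by 0.33 (95% interval -0.20 to 0.86) and G6pc, which releases glucose, by 0.44 (from just below 0 to 0.88). The 95% intervals reached a median of 0.23 log2 units to either side over all genes, and less than 0.5 in 93.1% of genes. These intervals are unadjusted, and an adjusted p under 0.05 needs a larger difference. Differences of that size and somewhat above it could therefore be missed in many genes.

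Among 19 genes of insulin and leptin signalling, 1 passed, where 3.27% of all genes did. It was Lepr, the leptin receptor, which fell. Lepr ranged from 1.17 (median 1.96) to 2.60 log2 CPM in HFD and from 2.15 (median 3.32) to 4.57 in LFD. In 8 of 11 HFD libraries it was below all LFD libraries (-1.37, SE 0.263, adjusted p 0.00627). Leprot, which shares its promoter region with Lepr, differed by 0.03 (95% interval -0.18 to 0.24). Of 10 growth hormone and IGF genes, 1 rose, the signal transducer Stat5a (0.47, adjusted p 0.0135).

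Cytochrome P450 genes of drug and steroid metabolism included the largest difference among the genes named. Of 29 xenobiotic genes, 7 rose and 1 fell, against 1.98% and 1.29% of all genes. Cyp2b9, a P450 with female-biased expression in mouse liver, ranged from 0.28 (median 3.52) to 6.64 log2 CPM in HFD and from -2.93 (median -1.01) to -0.54 in LFD, with no overlap (5.07, SE 0.709, adjusted p 0.000406). Cyp2b9 was below 1 CPM in every LFD library. It was therefore kept in the test through HFD libraries alone, and the lack of overlap adds no support. With limma-voom on the recovered reads the adjusted p of Cyp2b9 was 0.0733. Nr1i3, the xenobiotic receptor CAR, rose by 0.72 (SE 0.186, adjusted p 0.0356), a call that was lost without the 4 marker-rich libraries (adjusted p 0.092). Cyp2c50, Cyp2c37, Cyp2c54 and Cyp2c29 rose by 0.65, 0.65, 0.55 and 0.37, whereas Cyp2c40 fell (-2.16, SE 0.385, adjusted p 0.00385). The Cyp2c genes are close copies of each other, and their separate values are uncertain. Ugt2b38, a glucuronosyltransferase gene of another such family, was lower by 3.04-fold with an adjusted p of 0.0498, and lost the call in 14 of the 21 fits that left out 1 library.

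Bile handling showed 4 rises and 0 falls in 22 genes, against 1.98% and 1.29% of all genes. Abcb4, which exports phospholipid into bile, ranged from 8.26 (median 8.43) to 8.72 log2 CPM in HFD and from 7.54 (median 7.69) to 8.36 in LFD. Only 1 LFD library entered the HFD range (0.68, SE 0.087, adjusted p 0.00015). Abcc3, which returns bile conjugates to blood, had a difference of 1.25 (SE 0.266, adjusted p 0.0124), and Abcc2, which exports conjugates into bile, one of 0.28 (adjusted p 0.0145). Cyp8b1, which sets the ratio of bile acid species, rose by 0.53, while Cyp7a1, the rate-limiting enzyme of synthesis, stood at -0.15 (95% interval -0.86 to 0.55).

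Markers of the pericentral zone, the hepatocytes around the central vein, rose in 6 of 19 cases and fell in 0. Of all genes, 1.98% rose and 1.29% fell. The median of the 19 was 0.26, with 18 differences above 0. Aldh1a1, a retinal dehydrogenase, ranged from 10.34 (median 10.63) to 10.96 in HFD and from 9.50 (median 9.90) to 10.18 in LFD, with no overlap (0.76, SE 0.090, adjusted p 0.000108). Oat, an ornithine aminotransferase, rose by 0.88 (adjusted p 0.000737), the hepatokine Lect2 by 0.46 (adjusted p 0.000145) and Cyp2e1 by 0.44. Glul, a defining marker of the innermost layer, had a difference of 0.13 (95% interval -0.02 to 0.28) and did not pass. Of 20 periportal markers, 0 rose and 1 fell, the adhesion protein gene Cdh1 (-0.57, adjusted p 0.0277, and 0.179 without the 4 marker-rich libraries). Of 30 genes of amino acid catabolism, 4 rose by 0.19 to 0.88, among them Oat. That count was 9 without HFD Equal light replicate 1, 10 without both libraries that stood apart, and 1 without the 4 marker-rich libraries.

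Stress and immune lists had 0 or 1 call each, where 3.27% of all genes tested were called (1.98% higher and 1.29% lower). None of 24 genes of the unfolded protein response, 14 NRF2 targets, 22 cell cycle, 21 ribosome biogenesis or 27 proteasome genes passed. One gene fell in each of 4 lists: Rbm3, a cold-induced RNA-binding protein, among 15 chaperone and temperature genes (-0.42, adjusted p 0.00778), Orm1 among 23 acute phase genes (-0.52, adjusted p 0.0143), Bst2 among 24 interferon genes (-0.32, adjusted p 0.042) and Cd9 among 20 macrophage markers (-0.45, adjusted p 0.0321). Bst2 and Cd9 lost the call without the 4 marker-rich libraries (adjusted p 0.112 and 0.0735). Cd9 went against its list, in which 18 of 20 differences were above 0, with a median of 0.13. The photoperiods differed in this list, with medians of 0.425 in Equal, -0.213 in Long and 0.224 in Short light. There 19, 4 and 17 of the 20 were above 0. Of 16 stellate cell and matrix genes, Reln rose (0.27), a call lost in 9 of the 21 fits that left out 1 library. Of 7 adipocyte markers tested, Car3, which hepatocytes also express, rose (0.61), with an adjusted p of 0.161 without the 4 marker-rich libraries. Of the 7 differences 6 were above 0, with a median of 0.44. The adipocyte-defining Adipoq, too low to be tested, had a median of -2.25 log2 CPM in HFD and -1.91 in LFD, near the table's floor of -3.61. Its highest library was at 1.77 in HFD and 0.03 in LFD. Of 18 male-biased liver genes 0 rose and 1 fell, the complement gene C6 (-0.60, adjusted p 0.0385, and 0.161 without the 4 marker-rich libraries). Of 6 female-biased genes 1 rose, Cyp2b9, which was kept in the test through HFD libraries alone. Lymphocyte, neutrophil, endothelial, cholangiocyte and blood markers had 0 calls among 7, 2, 14, 7 and 6 tested.

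Pancreas acinar markers had a median difference of -1.84 over 15 genes, and 14 of the 15 were below 0. The median was -0.59 in Equal, -0.53 in Long and -4.13 in Short light, where the mean marker level of LFD replicates 1, 2 and 3 was 6.43, 2.24 and 2.49 log2 CPM. The mean marker level of a library ran from -2.94 to -0.37 log2 CPM in HFD and from -2.81 to 6.43 in LFD. The digestive enzyme genes Cpa1 and Ctrb1 had 0 reads in 11 of the 21 libraries each, and 1 marker, Cela2a, was called lower (-2.53, adjusted p 0.0422). Its adjusted p was 0.0625 without the 4 marker-rich libraries and 0.172 with limma-voom. Skeletal muscle markers had 0 of 18 called, where 3.27% of all genes were, and a median of -0.25. Their median was -0.92 in Equal, -1.04 in Long and 1.05 in Short light, with 0, 1 and 18 of the 18 above 0. Their mean levels ran from -2.75 to 5.88 in HFD and from -2.68 to 6.04 in LFD. Of 62 genes named by rule, 18 lost the call when the 4 marker-rich libraries were left out.

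Among the remaining genes that fell most, Adgrf1, an adhesion receptor, ranged from -0.11 (median 1.59) to 3.23 log2 CPM in HFD and from 2.99 (median 4.30) to 4.86 in LFD (-2.39, SE 0.402, adjusted p 0.0022). Prss8, a membrane-anchored serine protease, ranged from 0.66 (median 1.27) to 1.83 in HFD and from 1.83 (median 3.06) to 3.80 in LFD (-1.56, SE 0.195, adjusted p 0.000142). The diets touched at a single library on each side in both genes. Acpp, a phosphatase, was 2.58-fold lower (adjusted p 0.0575 without HFD Short light replicate 1). Tgm1, a transglutaminase (1.99-fold), and C4a, a complement C4 copy (2.12-fold), were lower as well, but lost the call without the 4 marker-rich libraries (adjusted p 0.177 and 0.144). C4a is nearly identical to C4b, so its reads may be misassigned.

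Among those that rose most, Adgrv1, another adhesion receptor, ranged from 2.13 (median 3.16) to 4.01 in HFD and from 0.72 (median 1.44) to 1.83 in LFD, with no overlap (1.68, SE 0.209, adjusted p 0.000142). Aatk, a kinase gene, was 2.60-fold higher, and 10 of 11 HFD libraries lay above all LFD libraries, while HFD Equal light replicate 1 lay below them all (2.02 log2 CPM). Acss3, a mitochondrial acyl-CoA synthetase, was 2.64-fold higher (adjusted p 0.00464). Hectd2os, annotated as antisense to Hectd2, was 2.58-fold higher (adjusted p 0.00107). No source used here says whether counting used the strand, so reads of the antisense partner cannot be told apart.

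**Figure D4:**
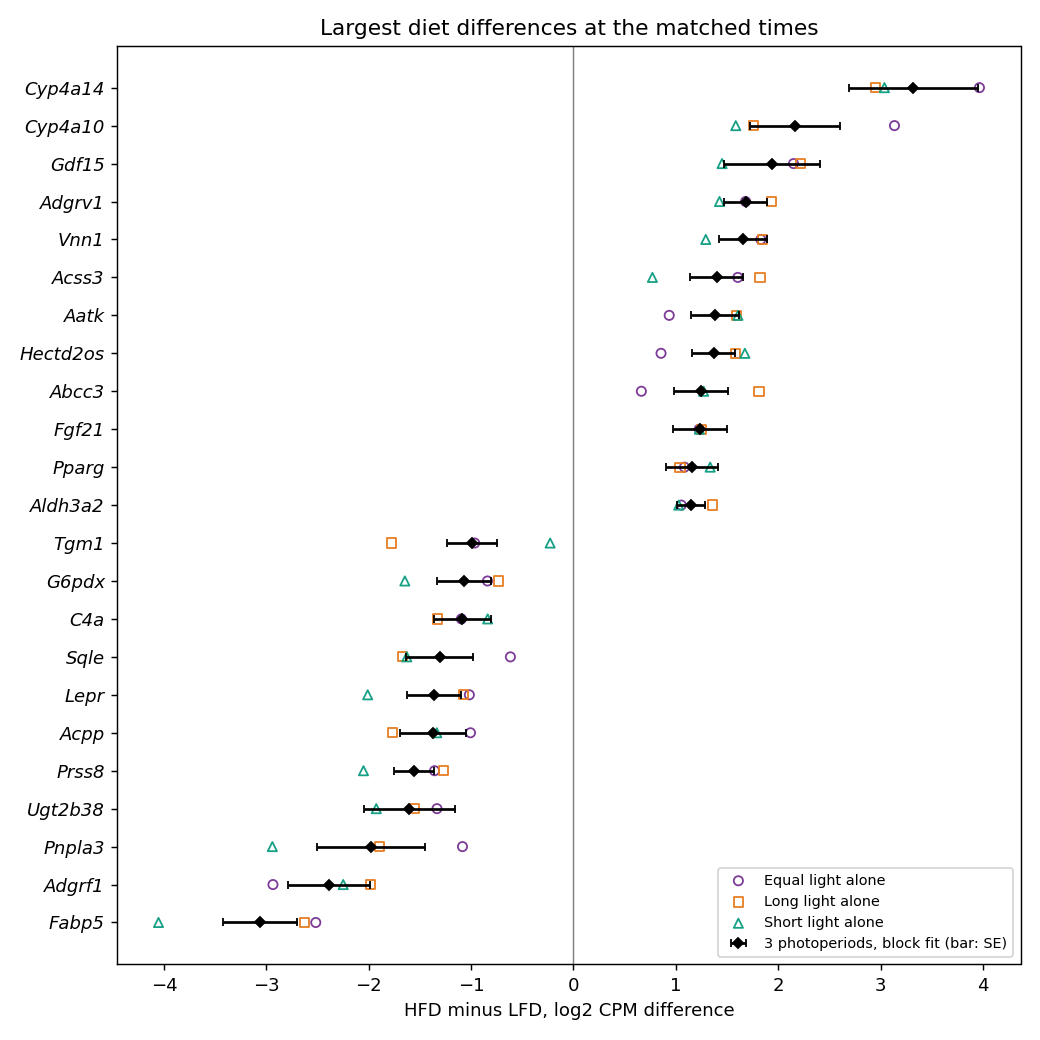
HFD minus LFD difference (x axis, log2 CPM) of the genes with the largest increases and decreases that are reported here. Black diamonds with bars are the estimate over 3 photoperiods and its SE, and open symbols are single photoperiods. All symbols of a gene lie on the same side of 0, and the spread between photoperiods is widest for Fabp5, Pnpla3, Tgm1 and Cyp4a10.

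Whether the diet effect depended on photoperiod was tested by an interaction over the 6 groups. Fabp5 differed by -2.52 in Equal, -2.62 in Long and -4.05 in Short light, and Pnpla3 by -1.08, -1.90 and -2.94. Sqle differed by -0.62, -1.67 and -1.63. For none of these did the difference between photoperiods pass. Over all genes the interaction test gave 0 calls by limma (0.0%) and 0 by limma-voom. At an unadjusted p under 0.05 there were 325 genes in limma (2.43%). The smallest p-values belonged to Amn1 (p 0.000148), Fgl1 (p 0.000491), Map3k13 (p 0.000621) and St3gal5 (p 0.000761), all with an adjusted p of 0.999. Fgl1, a hepatocyte-secreted protein, differed by 0.63 in Equal, -1.64 in Long and 0.52 in Short light. Without LFD Long light replicate 2, 1 of the muscle-rich libraries, 2 genes passed this test, Fgl1 (adjusted p 0.00462) and Prg4, a secreted proteoglycan gene (adjusted p 0.032). Groups of 3 or 4 libraries gave few calls on their own. There were 2 in Equal light (0.015%), Cpox of heme synthesis and the gene model 1810064F22Rik, and 14 in Long light (0.105%). There were 3 in Short light (0.0225%), Fabp5, Prss8 and the glycosyltransferase gene Ugt3a1.

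The libraries of the series outside these groups, collected at the other 5 matched times (19 to 22 libraries a time), share no library with them. There 2887 genes were called between diets (21.6%), 1503 higher (11.3%) and 1384 lower (10.4%). Of the 436 genes called here, 435 had the same sign there (99.8%, against 72.1% of all genes) and 383 were called with that sign (87.8%). Their median absolute log2 difference was 0.51 here, where they were selected, and the median there, signed by the direction here, was 0.28. Of the 30 oxidation genes, 28 were called higher there, with a median of 0.21, and of the 27 cholesterol genes 12 were called lower. Fatty acid synthesis had 12 of 20 called lower there, against 2 here, while its median difference was -0.25 there and -0.45 here. These counts do not compare the size of the effect, because more libraries were tested there. Of all genes, 10.4% were called lower there and 1.29% here. Pericentral markers had 15 of 19 called higher there and a median of 0.29.

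Some genes named here were not called in the other libraries. Fgf21 differed there by 0.28 (adjusted p 0.245), Acss3 by 0.39 (adjusted p 0.0621), the peroxisomal enzyme gene Ehhadh by 0.08 (adjusted p 0.459), Acot2 by 0.31 (adjusted p 0.161), C4a by -0.21 (adjusted p 0.342), Orm1 by -0.18 (adjusted p 0.104) and C6 by -0.16 (adjusted p 0.0706). A call here and none there does not show a difference, which was tested directly.

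The diet difference at this clock time minus its mean over the other 5 passed for 0 of 13348 genes by limma (0.0%) and 0 by limma-voom. At an unadjusted p under 0.05 there were 501 in limma (3.75%). Its 95% intervals reached a median of 0.23 log2 units to either side. For Fgf21 the difference was 0.96 (95% interval 0.18 to 1.75, p 0.0171) and for Ehhadh 0.48 (0.14 to 0.83, p 0.00656), both with an adjusted p of 0.999. Cyp4a14 differed between diets by 0.30, 0.41, 0.64, 3.25 and 1.92 at the matched times 0, 4, 8, 12 and 16 h and by 3.32 at 20 h (SE 0.900 in the fit over all libraries). Its difference against the other 5 times was 2.02 (0.05 to 3.98, p 0.0443). Fabp5 differed by -2.36 to -3.18 at the other times, and Lepr by -1.61 to -2.59. Neither can be called particular to this hour, with differences of -0.42 (-1.78 to 0.94) and 0.54 (-0.20 to 1.29). In that fit 479 genes were called at this time, against 143, 2 (Lepr and Srgap3), 73, 70 and 278 at 0, 4, 8, 12 and 16 h. The numbers of libraries were similar, but the genes tested were kept by their level at this time. Counts at the other times were not rerun with libraries left out, and a count of calls is not a test between times.

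The smallest p-values of that test belonged to Hamp2, a hepcidin gene of iron control, with a diet difference of 1.08 (SE 0.328) here and -0.28 over the other times (difference 1.37, p 0.000263). They were followed by Nat8f4 (-0.39, p 0.000323), the MYC family gene Mycl (0.84, p 0.000403) and Oser1 (0.37, p 0.000432). For Abcb4 the diet difference was 0.68 here and 0.31 elsewhere (0.37, p 0.00135). Kyat1 (-0.38, p 0.00146), Igf2bp2 (0.62, p 0.00158) and Ndst2 (-0.17, p 0.00168) came next, and none of the 8 passed (adjusted p 0.999).

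**Figure D5:**
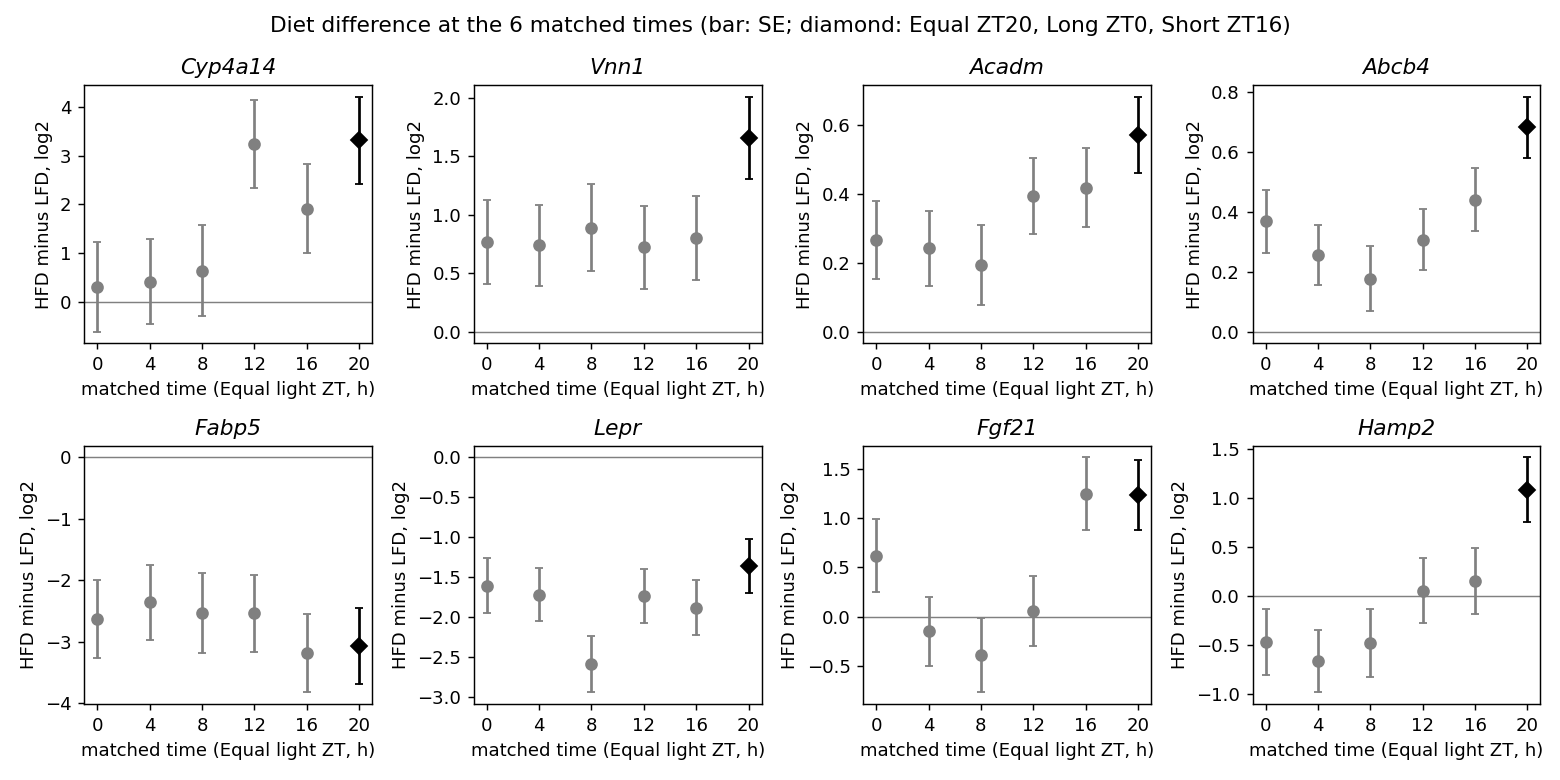
HFD minus LFD difference (y axis, log2 CPM) of 8 genes at the 6 matched times (x axis, ZT of Equal light in hours). Bars are SE from the fit over all libraries, and the diamond marks Equal ZT20, Long ZT0 and Short ZT16. Fabp5 and Lepr are below 0 at all 6 times, whereas Hamp2 is more than 1 SE above 0 at 20 h alone, and its difference from the other times did not pass.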

How the data were processed

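Poly-A RNA of mouse liver was read as stranded paired-end libraries, per the labels' protocols. Per the submitters' processing notes, STAR and featureCounts (Subread 1.6.2) were used with build GRCm38 (mm10). Counting options, annotation and normalization are named by no source used here. What the authors deposited is a table of log2 CPM for 15398 genes, a unit seen from the values. Its floor of -3.6124 (0.08176 CPM) equals a prior of 2.0 reads, and the values minus it were whole reads within 0.05 read for 99.43% to 99.73% of values. Those reads gave the depth and a limma-voom alternative. The prior understates changes of genes near the floor.

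A gene was kept where 3 or more of the 21 libraries reached 1 CPM (13348 genes). Limma 3.58.1 in R 4.3.3, with a variance trend, was fitted to the log2 values with diet and photoperiod as terms, and Benjamini-Hochberg adjustment over all genes at 0.05. The same model with 1 mean per group gave the diet by photoperiod F test (21 libraries) and the contrast against the other 5 matched times (all libraries). The diet contrast within the other 5 matched times was fitted to their 102 libraries only. Gene lists are given as counts and medians without a set test. The planned count model was not run, since the deposited table holds no counts. Named genes are the 12 largest increases and decreases among called genes of at least 2 log2 CPM, with a symbol and 1 sign in all photoperiods, up to 4 called members of each of 39 lists by p, and the 8 and 4 smallest p-values of the contrast between times and of the interaction. Other list members are named with their values to describe a step. A few genes picked this way are not reported here. The members and lists were chosen with earlier results of these data known. Identifiers matched GENCODE mouse release 21 in 15379 of 15398 cases (99.88%), and coordinates are 1-based. Replicates are numbered in accession order, as names only. No replicate pair agreed within sampling noise (lowest chi-square per degree of freedom 22.56 in 27 pairs). The scripts were tested on simulated data. Alternatives were another scaling, filter, pseudocount, robust and voom fits, covariates for library number and for Arntl minus Dbp, the label ZT20, and libraries left out.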

Additional observations from a re-analysis of the deposited data

Results flagged for a closer look

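In groups of 4 libraries, a single library lay far from the other 3 in 10 of 81 group values tested, where about 1 in 20 (4.0) comes by chance. LFD Short light ZT16 replicate 4 was the low one for Arntl minus Dbp, at -0.39 with the nearest library at 3.95, and for Hectd2os at 2.57 log2 CPM (nearest 3.5). It was the high one for Ugt2b38 at 4.51 (nearest 3.23) and for the skeletal muscle marker level at 2.70 (nearest -2.07).

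Abcc3 was low in HFD Equal light ZT20 replicate 1, at 6.19 log2 CPM (nearest 7.91), and in LFD Short light ZT16 replicate 2, at 5.89 (nearest 6.57). C4a was high in HFD Equal light ZT20 replicate 3, at 7.41 (nearest 5.97), and low in LFD Short light ZT16 replicate 2, at 7.19 (nearest 7.55). Fabp5 was low in LFD Short light ZT16 replicate 3, at 6.28 (nearest 7.62). Acss3 was high in HFD Long light ZT0 replicate 4, at 4.90 (nearest 4.22).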

How the results depend on the processing

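The diet comparison gave 436 calls. It gave 68 with libraries of the label ZT20 in all photoperiods, 205 without the 4 marker-rich libraries (181 of the 436 among them) and 1094 without both libraries that stand apart, which was tried after the data were seen (431 of the 436 among them). Leaving out 1 library gave 220 to 1059 calls, with the lowest without HFD Short light ZT16 replicate 1 and the highest without HFD Equal light ZT20 replicate 1. Limma-voom gave 423, of which 408 were among the 436. The diet by photoperiod test gave 2 calls without the marker-rich libraries, and 0 to 2 with 1 library left out, 2 without LFD Long light ZT0 replicate 2. The contrast against the other times gave 0 calls in every alternative run. Members called higher without the marker-rich libraries numbered 10 for oxidation and 2 for lipid droplets, and 12 for lipid droplets without both libraries that stand apart. With either of those 2 libraries left out, the counts were 21 to 25 for oxidation, 6 to 10 for lipid droplets and 3 to 8 lower for cholesterol. Of 62 named genes, 40 kept the call in all 21 fits that left out 1 library, 18 lost it without the marker-rich libraries, 56 with the label ZT20, 22 in the fit over all libraries and 3 with limma-voom. No named gene changed sign in any alternative run. No paired analysis was possible because the titles carry only unique library numbers. The voom and the covariate fits, the other filters and the rescaling kept the diet count within 1.5 times of 436.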

Other observations

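Outside the lists, 14 genes had diets that did not overlap, Adgrv1 among them. Those named here were chosen after their values were seen. Mtnr1a, a melatonin receptor gene, ranged from 1.46 (median 1.94) to 2.69 log2 CPM in HFD and from 0.63 (median 0.91) to 1.38 in LFD, 2.13-fold higher (adjusted p 5.93e-05). In the libraries of the other times it differed by 0.78 (adjusted p 2.86e-08). Ugt3a1, a glycosyltransferase gene, had the smallest adjusted p of these genes (1.2e-05), at 6.15 (median 6.23) to 6.74 in HFD and 5.10 (median 5.59) to 5.78 in LFD. Peroxisomal enzymes were represented by the protease Lonp2 (1.32-fold higher) and the glutathione transferase Gstk1 (1.49-fold higher). Aldh6a1 of valine breakdown was 1.28-fold higher, Cpox of heme synthesis 1.36-fold, Ei24 1.25-fold, Creg1 1.35-fold and Fam107b 1.69-fold.

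Elovl1, an elongase of very long fatty acids, was lower in HFD without overlap (-0.42, adjusted p 0.000255). Its lowest HFD value came from Equal light replicate 1, the library that stood apart. The separated genes named here were all called with the same sign in the libraries of the other times.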
